A study of Mus musculus with 6 samples.

Results

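The tumor necrosis factor (TNF) superfamily, its receptors and the TRAF adaptor proteins were examined in mouse cells carrying a Cas9 knockout of S100a8 and in vector control cells. Members were chosen by gene symbol: every Tnfrsf, Tnfsf and Traf gene, together with Tnf, Lta, Ltb, Ltbr, Fas, Fasl, Cd27, Cd70, Cd40, Ngfr, Eda, Edar, Eda2r and Relt. This gave 50 of the 18051 genes in the table, namely 16 ligands, 27 receptors and 7 TRAF adaptors; Cd40lg was not analysed here. RNA-seq was performed on 3 libraries labelled as S100A8 knockout, which the study made with lentiviral CRISPR, and 3 libraries labelled as vector control. Neither a clone number, a strain, a sex nor an age is given for either group, and the labels do not say whether the libraries of a group came from separate cultures, so the p-values cover only how much these particular libraries vary, and that variation may be technical. The labels call the cells of both groups hematopoietic stem cells. The study's text describes a S100a8 mutation of this kind in embryonic fibroblasts. It states that RNA-seq profiling of those fibroblasts was done after glycyrrhizic acid had been added. Whether these 6 libraries had the compound, and whether it was given alike to both groups, is not known.

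TNF family ligands are trimeric proteins of the cell surface or the extracellular fluid that cluster their receptors on a target cell. Receptors with a death domain can start apoptosis through FADD and caspase-8. Many receptors of the family recruit TRAF proteins, which lead to NF-kB and MAP kinase signalling. Decoy receptors bind ligand without passing on a signal. In stromal cells such as fibroblasts this family is known for inflammatory signalling and cell death, and in immune cells for costimulation and survival.

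Levels were compared as FPKM, a fragment count scaled to transcript length and to the mapped fragments of the library. The targeted gene S100a8 was listed at 0 in all 3 knockout libraries, against 3.67, 1.61 and 3.95 FPKM in the control libraries. Most fibroblast markers were abundant in both groups, with 9 of 11 at a mean of 10 FPKM or more over the 6 libraries. Among these 9, Dcn was under 10 FPKM in the knockout, with an average of 4.73 FPKM against 67.2 FPKM in the control. Outside these 9, Thy1 was listed at 0 in every control library, against 3.78, 4.18 and 3.70 FPKM in the knockout libraries. Lum was at most 0.07 FPKM in any library. The whole fibroblast list summed to 5860 to 6237 FPKM in the knockout libraries and 3894 to 3956 FPKM in the control libraries. Among markers of hematopoietic stem and progenitor cells, the defining genes Ptprc and Kit had no signal in any of the 6 libraries, which goes against the labelled cell type. The whole hematopoietic list summed to 144 to 172 FPKM in the knockout libraries and 442 to 460.4 FPKM in the control libraries. That sum was led by Ly6a (96.3 FPKM in the knockout and 359.7 FPKM in the control on average), Cd34 (32.9 and 56.4 FPKM) and Gata2 (11.3 and 22.7 FPKM), genes that cells other than stem cells can also express. The 4 T and NK cell markers in the table summed to between 0.51 and 0.72 FPKM in the knockout libraries and between 0.96 and 1.23 FPKM in the control libraries. Knockout library 2 stood apart, with correlations over all genes of 0.9938 and 0.9953 with the other knockout libraries, against 0.9987 between those, and 0.9986 to 0.9988 among the control libraries. It was also the library farthest from the knockout median for 13 of the 22 members tested, so counts are given without it as well.

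Most of the family that these cells expressed differed between knockout and control. Of the 50 members, 22 had a mean of at least 1 FPKM over the 6 libraries and were tested, and these 22 also had a mean of at least 1 FPKM within each group. Differences are knockout minus control on the log2(FPKM + 1) scale, tested with limma at a Benjamini-Hochberg adjusted p under 0.05 over all 11112 genes at that level. 6 members were higher in the knockout, 11 were lower and 5 did not pass the threshold. The 17 called members are 77.3% of those tested, beside 50.2% of all genes tested. The members higher in the knockout were 27.3% of those tested, beside 23.6% of all genes, while 11 of the 22 were lower, beside 26.7% of all genes. The median difference was −0.33 over the tested members and −0.02 over all genes tested. For 7 members, or 31.8%, the call came with a difference of more than 1 in size, beside 8.1% of all genes tested. 6 of the 7 were lower in the knockout and 1 was higher. In 20 of the 22 the knockout and control values did not overlap, beside 60.7% of all genes tested. Without knockout library 2, 20 members were called, 6 higher and 14 lower, while the share of all genes called was 66.5% (31.6% higher and 34.9% lower).

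**Figure D1:**
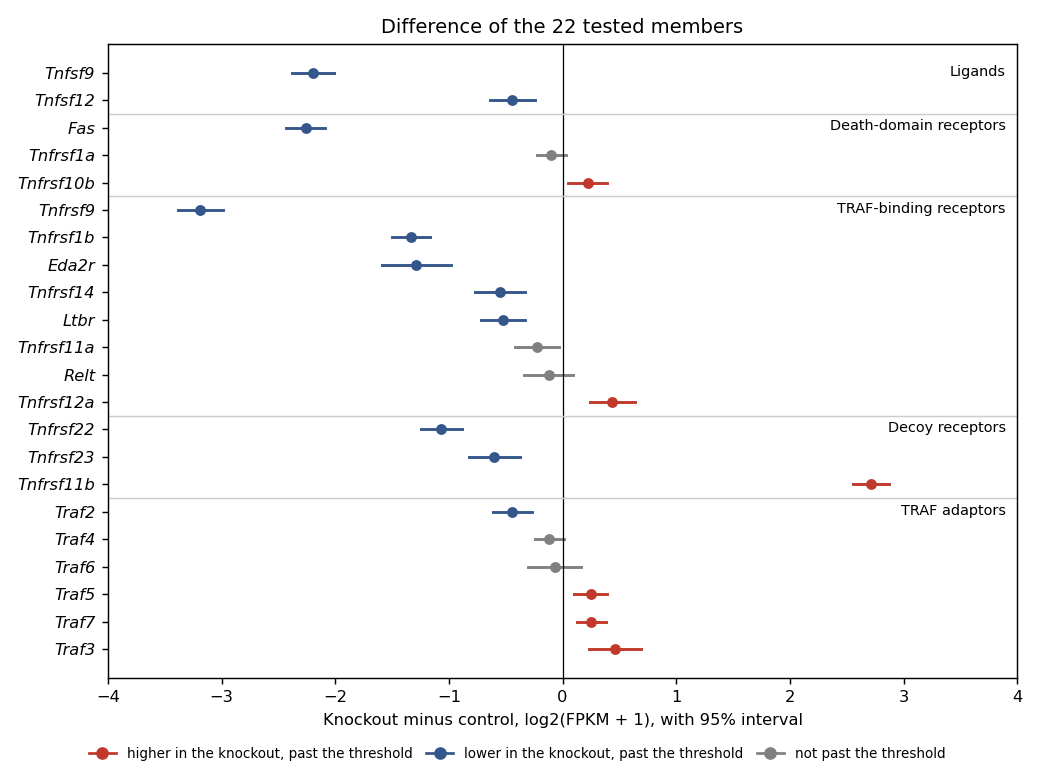
Difference between knockout and control of the 22 tested members on the log2(FPKM + 1) scale (x axis), grouped by role; points are estimates from 3 knockout and 3 control libraries, lines are 95% intervals, and colour gives the call. Tnfrsf9 lies farthest to the left at −3.19 and Tnfrsf11b farthest to the right at 2.71, while the TRAF adaptors lie between −0.44 and 0.46.

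Sequences just before the transcription start were compared for the called receptors and adaptors with a match to an NF-kB or interferon-response motif. Of these motifs, that of NF-kB belongs to the signalling that TNF family receptors feed into. RefSeq promoters (GRCm38.p6) were matched for 42 members, 12 of them called. The 250 bases before the start were searched on both strands for the NF-kB motif (GGG, a purine, any 2 bases, 2 pyrimidines, CC), for the core of the interferon-stimulated response element (GAAA, any 2 bases, GAAA) and for the AP-1 motif (TGANTCA), with no mismatch allowed. The 4 windows below run 5′ to 3′ on the strand of the gene, with the NF-kB or interferon-response match in capitals.
Tnfrsf9, chr4:150927946-150927975, plus strand: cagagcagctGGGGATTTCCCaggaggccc
Traf3, chr12:111166340-111166369, plus strand: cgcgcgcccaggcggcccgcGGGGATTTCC
Tnfrsf1b, chr4:145246871-145246990, minus strand: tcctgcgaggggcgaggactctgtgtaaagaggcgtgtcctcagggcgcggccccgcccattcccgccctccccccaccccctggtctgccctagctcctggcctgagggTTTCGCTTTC
Tnfrsf14, chr4:154928122-154928151, minus strand: ctattttttcTTTCATTTTCacttttcctt
The NF-kB motif was found before 5 members (Ltb, Tnfrsf25, Tnfrsf8, Tnfrsf9 and Traf3) and in 7.25% of all 32851 promoters. The starts are those of the RefSeq promoter entries, which can lie inside the bounds of a gene. The Tnfrsf9 window holds overlapping matches that begin 43 and 42 bases before a start 7844 bases inside the gene, and the Traf3 match begins 10 bases before a start 49 bases inside the gene. The interferon-response core was found before Tnfrsf14, Tnfrsf1b and Tnfsf13b and in 2.98% of promoters, beginning 64 bases before a start of Tnfrsf14 that lies 543 bases inside the gene and 10 bases before the outermost start of Tnfrsf1b. The AP-1 motif was found before 6 members (Fas, Tnfrsf8, Tnfrsf9, Tnfsf13, Tnfsf13b and Tnfsf14) and in 6.75% of promoters. Of the members with printed windows, Tnfrsf9, Tnfrsf1b and Tnfrsf14 were lower in the knockout and Traf3 was higher, as described below. The Tnfrsf9 and Tnfrsf14 windows lie within annotated exons of the same genes. Members were counted as genes with a match in any of their promoter entries, whereas the percentages are of single entries, so these are unlike measures. A match describes letters and not binding.

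Among ligands, only Tnfsf9 and Tnfsf12 reached the level tested, and both were lower in the knockout, beside 26.7% of all genes tested. Tnfsf9, the ligand of the costimulatory receptor CD137 (chr17:57105287-57107758), had 1.77, 1.36 and 1.50 FPKM in the knockout libraries, against 10.67, 10.28 and 10.94 FPKM in the control libraries. Every control library was thus well above every knockout library, with a control mean 6.89 times the knockout mean. The difference was −2.20 ± 0.08 (SE, n = 3 each; limma adjusted p = 3.36e-07). Tnfsf12, which encodes TWEAK (chr11:69686240-69696098), had 16.34, 20.43 and 17.03 FPKM in the knockout libraries, against 24.96, 24.53 and 24.39 FPKM in the control libraries, with no overlap. Its difference was −0.44 ± 0.09 (SE; limma adjusted p = 0.00337). Reads of Tnfsf12 can be shared with Tnfsfm13, a gene on the same strand that overlaps it and was called in neither direction (1.89 ± 0.34 FPKM in the knockout and 1.79 ± 0.31 FPKM in the control, SD, n = 3 each; limma adjusted p = 0.737).

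The receptor of Tnfsf9 was lower as well. Tnfrsf9 (CD137, chr4:150920155-150946104), a costimulatory receptor best known from activated T cells, had 1.67, 1.21 and 1.41 FPKM in the knockout libraries, against 21.18, 21.61 and 20.42 FPKM in the control libraries. This was the largest difference of any tested member, at −3.19 ± 0.08 (SE; limma adjusted p = 6e-08), and the control mean was 14.7 times the knockout mean. T and NK cell markers were near 0 in both groups, as given above. In the GENCODE annotation Tnfrsf9 overlaps Camta1, a gene on the opposite strand, but the RefSeq bounds of Camta1 (chr4:151059523-151861768) do not reach Tnfrsf9. Camta1 was itself lower (1.29 ± 0.17 FPKM in the knockout and 2.25 ± 0.26 FPKM in the control, SD). Which annotation the counting used, and whether it used strand, is not given in the sources used here. Within each library, Tnfrsf9 was at 0.94, 0.89 and 0.94 times the FPKM of Tnfsf9 in the knockout and at 1.99, 2.10 and 1.87 times in the control, so the receptor was the lower of the pair in every knockout library and the higher in every control library.

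The death-domain receptors did not move together. Fas (chr19:34290647-34327775), the receptor that triggers apoptosis on binding Fas ligand, had 11.93, 10.83 and 9.82 FPKM in the knockout libraries, against 55.30, 55.45 and 56.11 FPKM in the control libraries. Its difference was −2.26 ± 0.07 (SE, n = 3 each; limma adjusted p = 1.67e-07), a control mean 5.12 times the knockout mean. Tnfrsf1a, the main TNF receptor of most tissues, was by contrast abundant in both groups, at 56.63, 61.07 and 57.49 FPKM in the knockout libraries and 63.93, 61.46 and 62.35 FPKM in the control libraries. The groups did not overlap but lay close, and the difference of −0.10 (95% interval −0.23 to 0.03; limma adjusted p = 0.177) did not pass the threshold. It passed without knockout library 2 (−0.13, adjusted p = 0.0157) and relative to the median of chromosome 6 (−0.20, adjusted p = 0.024). Tnfrsf10b, the mouse death receptor for TRAIL, was higher by the test, with 16.06, 14.17 and 16.71 FPKM in the knockout libraries and 13.33, 13.01 and 13.42 FPKM in the control libraries. Its difference of 0.22 ± 0.07 (SE; limma adjusted p = 0.0366) was smaller than the median of 0.41 over all tested genes of chromosome 14, and it turned to −0.19 when differences were taken relative to that median. The call for Tnfrsf10b was also lost on a TPM scale and on leaving out any single library other than knockout library 2 (adjusted p of 0.0845 to 0.13). Fas stood at 0.74, 0.76 and 0.59 times the FPKM of Tnfrsf10b in the knockout libraries, against 4.15, 4.26 and 4.18 times in the control libraries.

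Of the 8 tested receptors that lack a death domain and signal through TRAF proteins, 5 were lower, 1 was higher and 2 did not pass the threshold. The lower ones were 62.5% of these 8, beside 26.7% of all genes tested, and the called ones 75.0%, beside 50.2%. Tnfrsf1b, the second TNF receptor, which recruits TRAF2 (chr4:145212368-145246870), had 6.77, 5.83 and 6.56 FPKM in the knockout libraries, against 18.04, 17.37 and 17.32 FPKM in the control libraries. Its difference was −1.33 ± 0.07 (SE; limma adjusted p = 2.55e-06). The ratio of Tnfrsf1a to Tnfrsf1b within a library was 8.36, 10.48 and 8.76 in the knockout and 3.54, 3.54 and 3.60 in the control. Eda2r, a receptor of ectodysplasin that is also known as a p53 target, had 4.07, 2.76 and 4.26 FPKM in the knockout libraries, against 10.97, 10.40 and 9.66 FPKM in the control libraries. The groups were well apart, and the difference was −1.29 ± 0.13 (SE; limma adjusted p = 0.000113), beyond the median of −0.36 over tested genes of the X chromosome.

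Ltbr, the lymphotoxin beta receptor, which activates noncanonical NF-kB, had 39.29, 47.56 and 38.95 FPKM in the knockout libraries, against 61.36, 58.50 and 61.51 FPKM in the control libraries, a difference of −0.52 ± 0.08 (SE; limma adjusted p = 0.00135). Tnfrsf14 (HVEM), a receptor of LIGHT, was lower at 2.15, 1.75 and 1.75 FPKM in the knockout libraries, against 3.24, 3.57 and 2.86 FPKM in the control libraries, a difference of −0.55 ± 0.09 (SE; limma adjusted p = 0.00191). Both receptors bind LIGHT, encoded by Tnfsf14, and that ligand was at 0 in all libraries but 1, a control library with 0.03 FPKM. Tnfrsf11a (RANK) averaged 1.44 ± 0.17 FPKM in the knockout and 1.85 ± 0.12 FPKM in the control (SD, n = 3 each) and just missed the threshold, with a 95% interval of −0.42 to −0.03 and a limma adjusted p of 0.0527; it passed without knockout library 2 (adjusted p = 0.0237) and relative to its chromosome's median (adjusted p = 0.0425). Relt averaged 1.96 ± 0.23 FPKM in the knockout and 2.22 ± 0.26 FPKM in the control (SD), with a 95% interval of −0.34 to 0.10.

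Tnfrsf12a (Fn14), the receptor of TWEAK, was the exception among the TRAF-binding receptors and the most abundant receptor of the family in both groups. It had 180.60, 208.23 and 178.62 FPKM in the knockout libraries, against 127.98, 141.47 and 148.13 FPKM in the control libraries (chr17:23675445-23677449). The difference was 0.44 ± 0.09 (SE; limma adjusted p = 0.00373), with no overlap. As its ligand Tnfsf12 was lower, the ratio of Tnfrsf12a to Tnfsf12 within a library was 11.05, 10.19 and 10.49 in the knockout, against 5.13, 5.77 and 6.07 in the control. The TWEAK and CD137 pairs thus differed: receptor and ligand were both lower for CD137, whereas for TWEAK the receptor was higher and the ligand lower.

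**Figure D2:**
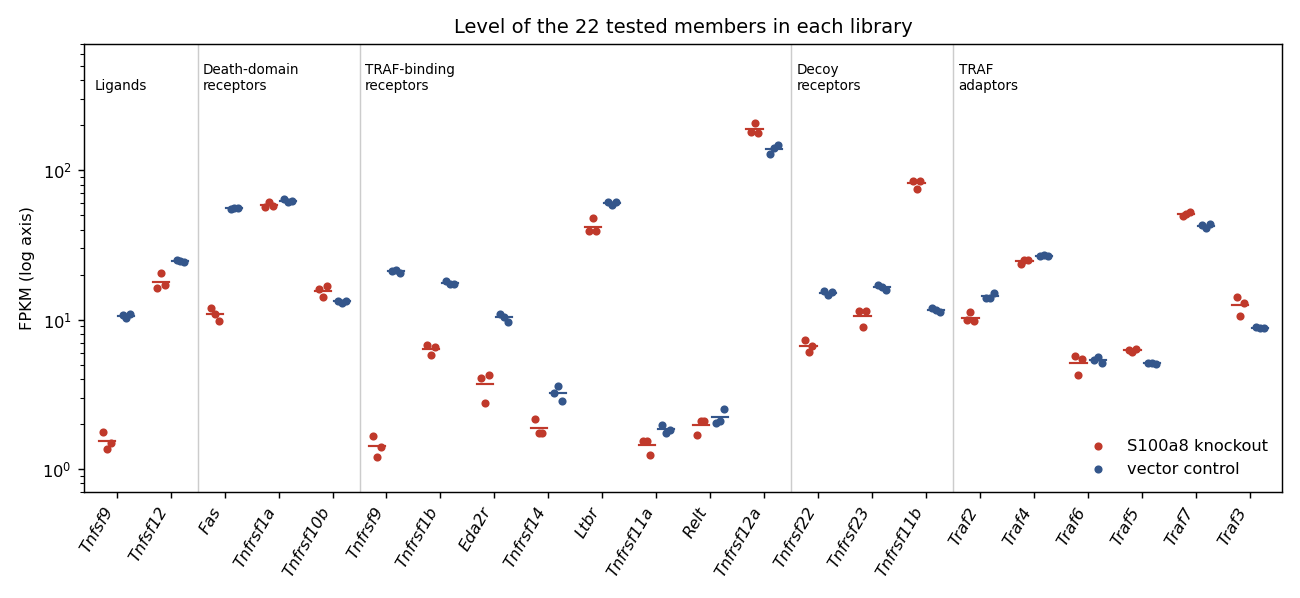
FPKM of the tested members in each library (logarithmic axis), grouped by role; each point is 1 of the 3 knockout or 3 control libraries and each short line a group mean. The knockout and control points of Tnfrsf9, Tnfsf9, Fas and Tnfrsf11b are clearly separated, while those of Tnfrsf1a, Traf4 and Traf6 lie close together.

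All 3 decoy receptors were called, in opposite directions, beside 50.2% of all genes tested. Tnfrsf11b (chr15:54250619-54278484) encodes osteoprotegerin, a secreted decoy that binds RANKL and TRAIL and restrains the formation of osteoclasts. It had 85.15, 75.35 and 85.32 FPKM in the knockout libraries, against 11.97, 11.66 and 11.24 FPKM in the control libraries. The knockout mean was 7.05 times the control mean, and the difference of 2.71 ± 0.07 (SE, n = 3 each; limma adjusted p = 4.3e-08) was the largest rise among the members. RANKL itself (Tnfsf11) was at most 0.09 FPKM in the knockout libraries and 0.07 FPKM in the control libraries. The ratio of Tnfrsf11b to RANK (Tnfrsf11a) within a library was 55.29, 48.93 and 68.81 in the knockout and 6.08, 6.70 and 6.14 in the control.

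Tnfrsf22 and Tnfrsf23, mouse decoy receptors for TRAIL, were both lower. Tnfrsf22 had 7.35, 6.08 and 6.68 FPKM in the knockout libraries, against 15.51, 14.63 and 15.21 FPKM in the control libraries (difference −1.07 ± 0.08, SE; limma adjusted p = 1.62e-05). Tnfrsf23 had 11.47, 8.95 and 11.41 FPKM in the knockout libraries, against 17.06, 16.52 and 15.90 FPKM in the control libraries (difference −0.60 ± 0.10, SE; limma adjusted p = 0.00141). Together with Tnfrsf26 these genes are neighbours on chromosome 7, between positions 143607685 and 143686436 of GRCm38.p6. Tnfrsf26, too low to be tested with the others, had 0.17, 0.13 and 0.12 FPKM in the knockout libraries and 0.90, 0.88 and 0.87 FPKM in the control libraries, so that all 3 neighbours were lower in every knockout library. The 3 genes are similar in sequence and may share reads, and the median difference of all tested genes on chromosome 7 was −0.25. Relative to that median the differences of Tnfrsf22 and Tnfrsf23 were −0.82 and −0.35, with limma adjusted p of 7.76e-05 and 0.0214.

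Summed over the 27 receptors, the knockout and control libraries were alike, but the makeup of the sum was not. The sum was 430.5, 451.3 and 426.3 FPKM in the knockout libraries and 426.8, 432.0 and 441.2 FPKM in the control libraries, and the groups overlapped. Tnfrsf12a took 43.4% of this sum in the knockout and 32.1% in the control. Tnfrsf11b took 18.8% in the knockout and 2.7% in the control, and ranked 2 of the receptors in the knockout but 10 in the control. Fas took 2.5% in the knockout and 12.8% in the control, and Tnfrsf9 0.3% in the knockout and 4.9% in the control. Tnfrsf1a took a similar part in both groups, at 13.4% in the knockout and 14.4% in the control. By role, the decoy receptors summed to 104.0, 90.4 and 103.4 FPKM in the knockout libraries, against 44.5, 42.8 and 42.4 FPKM in the control libraries. Death-domain receptors summed to 86.6, 87.8 and 86.1 FPKM in the knockout libraries, against 133.0, 130.3 and 132.4 FPKM in the control libraries. Ligands summed to 20.3, 24.2 and 19.6 FPKM in the knockout libraries, against 38.1, 36.8 and 37.1 FPKM in the control libraries. In none of these 3 classes did the groups overlap as FPKM. Nor did they for the TRAF adaptors, at 109.7, 108.7 and 112.3 FPKM in the knockout libraries and 103.3, 101.9 and 104.5 FPKM in the control libraries. The TRAF-binding receptors, the class with the largest sum, overlapped at 239.8, 273.0 and 236.6 FPKM in the knockout libraries and 248.4, 258.0 and 265.5 FPKM in the control libraries. Such sums are led by their most abundant members, and in bulk libraries fewer cells that express a gene and less RNA per cell cannot be told apart. The FPKM of all genes also added up to unequal totals, which varied more among the knockout than among the control libraries. The sums were not scaled to those totals. Whether the narrow gap of the TRAF adaptors would remain after such scaling was not tested.

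**Figure D3:**
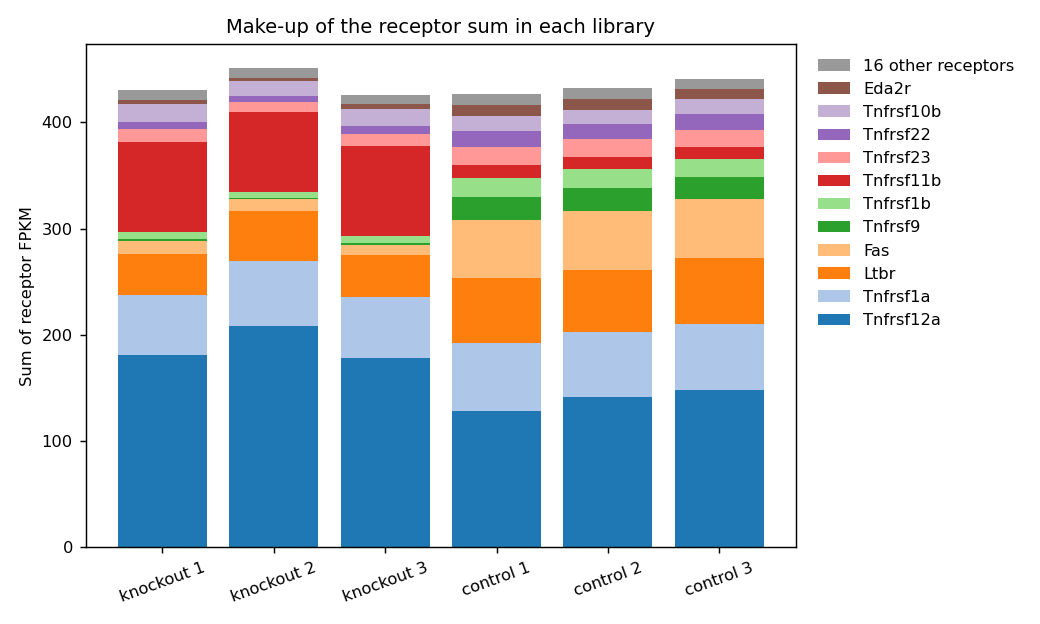
FPKM of the family's 27 receptors summed in each of the 3 knockout and 3 control libraries, with each bar divided by receptor. The bars are nearly equal in height, between 426.3 and 451.3 FPKM, while the Tnfrsf11b part is larger and the Fas and Tnfrsf9 parts are smaller in the knockout.

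Of the 6 TRAF adaptors tested, 3 were higher, 1 was lower and 2 did not pass the threshold, and none of the 6 differed by more than 0.46 in size. The called adaptors were 66.7% of those tested, beside 50.2% of all genes tested. Traf3 was higher, at 14.24, 10.64 and 12.88 FPKM in the knockout libraries, against 8.90, 8.73 and 8.81 FPKM in the control libraries; the protein restrains noncanonical NF-kB by keeping its kinase NIK low. The difference was 0.46 ± 0.10 (SE; limma adjusted p = 0.00606), but it was 0.26 with an adjusted p of 0.0715 relative to the median of 0.20 on chromosome 12. Traf7, which carries WD40 repeats in place of the TRAF domain, was higher at 49.28, 50.64 and 52.33 FPKM in the knockout libraries, against 43.01, 41.00 and 43.39 FPKM in the control libraries (0.25 ± 0.06, SE; limma adjusted p = 0.0063). Traf7 overlaps Caskin1 on the opposite strand and, in the GENCODE annotation only, Rab26, whose RefSeq bounds lie outside Traf7. Neither Caskin1 nor Rab26 had more than 0.26 FPKM in any library.

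Traf5, a partner of TRAF2 at many receptors, was higher at 6.29, 6.07 and 6.32 FPKM in the knockout libraries, against 5.12, 5.12 and 5.02 FPKM in the control libraries (0.25 ± 0.06, SE; limma adjusted p = 0.0123). The Traf5 call was lost on a TPM scale (adjusted p = 0.0567) and without control library 3 (adjusted p = 0.0578). Traf2, which brings the ubiquitin ligases cIAP to the receptors, was the only TRAF called lower. It had 9.90, 11.19 and 9.72 FPKM in the knockout libraries, against 13.86, 14.03 and 14.96 FPKM in the control libraries (−0.44 ± 0.07, SE; limma adjusted p = 0.00162). Relative to the median of −0.20 on chromosome 2 its difference was −0.25 (adjusted p = 0.0287).

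Traf4, best known from development, averaged 24.6 ± 0.90 FPKM in the knockout and 26.7 ± 0.23 FPKM in the control (SD, n = 3 each), with a limma adjusted p of 0.12; it passed the threshold without knockout library 2 (adjusted p = 0.0288). Traf6, which serves RANK and the Toll-like and interleukin-1 receptors, averaged 5.13 ± 0.75 FPKM in the knockout and 5.40 ± 0.25 FPKM in the control (SD; limma adjusted p = 0.605), and the sign of its difference varied with the processing. Traf1 was below the level tested, at 0.72, 0.71 and 0.54 FPKM in the knockout libraries and 0.54, 0.43 and 0.43 FPKM in the control libraries, which meet at 0.54.

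The other 28 members had a mean under 1 FPKM, among them 14 of the 16 ligands. In 16 of them no library reached 0.2 FPKM, and Cd70 was listed at 0 in all 6. The knockout and control values did not overlap in 12 of the 28, beside 27.1% of the 6341 genes above 0 and under that mean. When all genes above 0 were fitted without a minimum level, 27 of these members entered and 10 passed the threshold, beside 37.4% of the 17453 genes in that fit and 21.9% of the 6341 low genes. At these levels the values rest on few fragments, and the number of fragments per library is not known.

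5 of the 10 were higher and 5 were lower. Tnfrsf21, the death receptor DR6, had 1.82, 1.71 and 1.98 FPKM in the knockout libraries, against 0.14, 0.09 and 0.16 FPKM in the control libraries (difference 1.33 without the minimum). It was thus above 1 FPKM in each knockout library only, with a knockout mean 14.1 times the control mean. Eda, the ligand ectodysplasin, had 0.56, 0.42 and 0.40 FPKM in the knockout libraries, against 0, 0.04 and 0.02 FPKM in the control libraries (adjusted p = 0.000249 by limma), whereas its receptor Eda2r was lower. Tnf had 0.34, 0.33 and 0.10 FPKM in the knockout libraries and was listed at 0 in the 3 control libraries. Tnfrsf21 and Tnf were named by a rule on their levels in each group, so no p-value is given for them. Tnfrsf4 (OX40) and Tnfsf15 were the other members higher in that fit.

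Tnfrsf26, given above, was lower in the same fit. Tnfsf10, the ligand TRAIL, had 0.02, 0.01 and 0.01 FPKM in the knockout libraries, against 0.17, 0.21 and 0.14 FPKM in the control libraries. Tnfsf13b, the B cell survival factor BAFF, had 0.06, 0.03 and 0.03 FPKM in the knockout libraries, against 0.34, 0.58 and 0.18 FPKM in the control libraries. Tnfrsf25 and Edar were also lower. Lta, the ligand lymphotoxin alpha, overlapped between groups, at 0.41, 0.51 and 0.30 FPKM in the knockout libraries and 0.65, 0.30 and 0.30 FPKM in the control libraries, as did Tnfrsf18 (GITR), at 1.02, 1.13 and 1.09 FPKM in the knockout libraries and 1.10, 0.72 and 0.84 FPKM in the control libraries. Fasl, the ligand of Fas, reached 0.03 FPKM in 1 knockout library and 1 control library and was listed at 0 in the others.

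**Figure D4:**
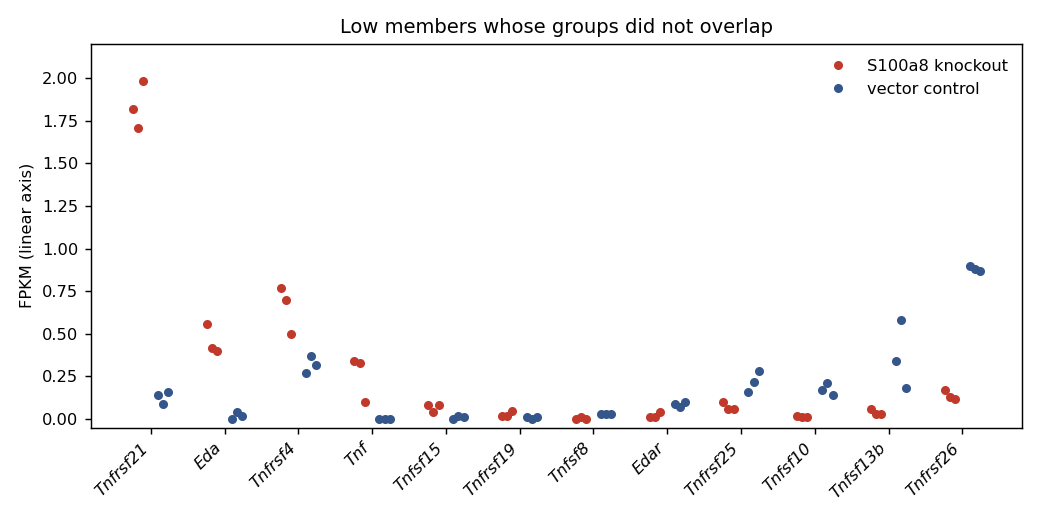
FPKM (linear axis) in each library of the 12 members with a mean under 1 FPKM whose knockout and control values did not overlap; each point is 1 of the 3 knockout or 3 control libraries. Tnfrsf21 is above 1 FPKM in the knockout libraries only, Tnf is above 0 in the knockout libraries only, and Tnfrsf26 is close to 0.9 FPKM in the control libraries only.

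Beyond the members, signalling genes that act next to the receptors and genes that TNF is known to induce through NF-kB were counted in the same fit. Of 31 receptor-proximal genes, 29 were tested, of which 3 were higher, 10 were lower and 16 did not pass the threshold. The called genes were 44.8% of those tested, below the 50.2% of all genes, and the median difference was −0.12. The rises were Ripk3, the kinase of necroptosis (1.85 ± 0.09, SE), Tnfaip3, the NF-kB inhibitor A20 (0.86 ± 0.13), and Cflar, the caspase-8 inhibitor c-FLIP (0.51 ± 0.09). Ripk3 had 9.77, 11.08 and 9.27 FPKM in the knockout libraries, against 2.11, 2.19 and 1.86 FPKM in the control libraries, while Mlkl, the protein that RIPK3 phosphorylates to break the membrane, had 19.21, 18.83 and 17.09 FPKM in the knockout libraries, against 27.81, 29.96 and 27.84 FPKM in the control libraries. The falls of the caspase inhibitor Xiap (−0.67 ± 0.17, SE), of Mlkl (−0.61 ± 0.07) and of the kinase gene Chuk (−0.56 ± 0.10) were the largest in this fit, but their order was not stable. Without knockout library 2 they were −0.46, −0.63 and −0.47 for Xiap, Mlkl and Chuk, and relative to the medians of their chromosomes −0.31, −0.71 and −0.34, with the Xiap call lost (adjusted p = 0.176).

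Of 30 genes induced by TNF, 25 were tested, of which 6 were higher, 13 were lower and 6 did not pass the threshold. The higher were 24.0% and the lower 52.0% of those tested, beside 23.6% and 26.7% of all genes. With 76.0% called, the median difference was −0.47, beside 50.2% and −0.02 over all genes tested. Ccl20, Il6, Il15 and Tnfaip6 reached the mean of 1 FPKM through the group where they were high and had less in the other, so a difference was built into their selection. Of the 21 genes with at least 1 FPKM in each group, 5 were higher and 10 lower, with 71.4% called and a median of −0.29, beside 48.2% and −0.01 over the 10593 genes of the whole table at that level. The chemokine Cxcl5 had 2.49, 1.53 and 1.80 FPKM in the knockout libraries, against 71.48, 66.04 and 70.81 FPKM in the control libraries (−4.60 ± 0.12, SE; limma adjusted p = 4.53e-08). The chemokine Cxcl10 (−3.97 ± 0.16) and the cytokine Il6 (−2.00 ± 0.13) followed. The chemokine Ccl20 went the other way, at 13.32, 9.05 and 10.03 FPKM in the knockout libraries, against 0.67, 0.94 and 0.20 FPKM in the control libraries (2.89 ± 0.19, SE; limma adjusted p = 1.04e-05). The next rises were smaller, those of the protease Mmp9 (0.57 ± 0.14) and of Tnfaip2 (0.56 ± 0.06). Over both lists 9 of 54 tested genes were higher and 23 lower, or 16.7% and 42.6%, beside 23.6% and 26.7% of all genes tested. Of the 50 with at least 1 FPKM in each group, 8 were higher and 20 lower, with 56% called, beside 48.2% of all genes at that level. Without knockout library 2 the counts for the 54 genes were 15 higher and 27 lower, in a fit where 31.6% of all genes were higher and 34.9% lower.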

How the data were processed

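RNA was sequenced from 6 mouse libraries. According to the study's methods and the submitters' processing notes, the authors cleaned the reads, aligned them with HISAT2 (2.0.4) and Bowtie2 (2.2.5) to mm10 and estimated expression with RSEM; annotation and strand setting are not given in the sources used here. The deposited values are FPKM, so a fold depends on the makeup of each library. Fragment counts could not be recovered from the low values, so depth is unknown and no counting interval is given.

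Values were taken as log2(FPKM + 1). Genes with a mean of at least 1 FPKM over the 6 libraries were tested with limma (3.58.1, R 4.3.3; no covariate, variance trend over mean level), and p-values were adjusted by Benjamini-Hochberg over these genes with a threshold of 0.05; the code was tested on simulated data. Fold changes on this scale understate those of low genes. Coordinates and sequences are from RefSeq, GRCm38.p6, the assembly that mm10 represents. Overlaps between genes and with exons are from the GENCODE annotation.

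One cell type marker is not reported here. The members and gene lists were chosen with earlier results of these data known. Named members were the 8 largest rises and falls past the threshold without overlap, members with a mean of 10 FPKM or more in either group, untested members at 1 FPKM or more in every library of a group or listed at 0 in every library of only 1 group, the TNF receptors, Tnf, Lta and Traf genes, and their binding partners; the other low members named were chosen after their values were seen. Alternatives were pseudocounts of 0.1 and 0.5, no minimum or a minimum of 5 FPKM, TPM, median-of-ratios and quantile scaling, no trend, centring on each chromosome's median, a replicate block and leaving out each library.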

Additional observations from a re-analysis of the deposited data

How the results depend on the processing

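Of 539 values for 34 named genes under the alternatives, 518 kept their direction and their side of the threshold, 4 (for Relt and Traf6) did not keep their sign but were past the threshold in neither fit, 10 were no longer past it, 6 newly passed it and 1 called value reversed, Tnfrsf10b at −0.19 (limma adjusted p = 0.0738) with chromosome centring. With no minimum level, 27 members were called and 11 of these were higher; more members entered that fit. With any single library left out, 15 to 20 members were called, with the 20 reached without knockout library 2 and the 15 without control library 3; the share of all genes called ranged over 38.5% to 66.5% in these fits, with 66.5% without knockout library 2 and 38.6% without control library 3. It gave 9 to 15 pathway genes higher, the 15 without knockout library 2. The labels do not say whether the replicate numbers pair the libraries. Correlations of the deviations were 0.327, 0.104 and −0.214 for replicates 1, 2 and 3, and −0.358 to 0.284 between libraries of unlike number. These few values cannot settle whether the libraries were paired. A replicate block left 17 members called, 6 higher and 11 lower, and kept all 17 in the same direction. The scaling alternatives moved the median of all genes by under 0.1. Depth is unknown, so the low members carry the least certain values.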
